A study of Mus musculus with 16 samples.

Results

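The proteasome subunit genes of mouse pancreas were taken as the gene symbols made of Psm, a letter from a to g and a number, with or without a final letter. Of 24411 rows of the count table, 49 had such a symbol, and 47 of these were among the 13660 genes that passed a filter on low counts (edgeR's filterByExpr). Psma8 and Psmb11, the core subunits of testis and thymus, did not pass and were not tested. Whole pancreas RNA came from 16 male C57BL6/J mice at 12 weeks of age, 1 library per mouse: 5 WT mice, 7 untreated Lep(ob/ob) mice and 4 of the same genotype with a cholecystokinin receptor inhibitor (CCKRi) in the drinking water. Lep(ob/ob) mice lack functional leptin, the satiety hormone of fat cells, in the whole body and are obese. The inhibitor was proglumide at 0.1 mg/mL in mice 69 and 72 and lorglumide at 0.05 mg/mL in mice 74 and 76, given for 6 weeks from 6 weeks of age. WT and untreated Lep(ob/ob) mice had control water over the same time. The sources differ on the WT mice, which came from in-house breeding per the labels and were bought, as the Lep(ob/ob) mice were, per the study's methods. If the labels hold, genotype and origin cannot be told apart. The labels give each library 1 of 2 batch codes and do not say what a batch was: 3 of the WT and 4 of the untreated obese mice carry code A here, while code B covers the other 2 WT mice, 3 untreated obese mice and every one of the 4 CCKRi mice. The questions here were whether obesity, and blocking cholecystokinin receptors in obesity, went with other levels of proteasome genes.

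The 26S proteasome is the protease that degrades proteins marked with ubiquitin. Its 20S core is a stack of rings of alpha subunits, which gate entry, and beta subunits, which hold the active sites, and its 19S cap unfolds the substrate with a ring of ATPases. On interferon signalling, and in immune cells, the active beta subunits Psmb5, Psmb6 and Psmb7 are replaced by the immunoproteasome subunits Psmb8, Psmb9 and Psmb10, and the 11S cap of Psme1 and Psme2 is induced with them. Pancreatic acinar cells make and secrete large amounts of protein, so that protein quality control is a constant task of this tissue.

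Batch A libraries ran from 19.2 to 34.5 M counts, with 79.2% to 85% of them in the 50 most counted genes, and batch B libraries from 9.87 to 15.9 M, with 49.3% to 77.1%. The share of all counts that fell on the 47 members was 0.0676% to 0.0823% for batch A libraries and 0.0987% to 0.204% for those of batch B. Levels are therefore given as log2 CPM, the log2 of counts per M (CPM) on TMM-scaled library sizes with a prior count of 2. The tissue label was checked by marker lists: 8 of 8 acinar genes and 10 of 10 islet genes were detected, and acinar genes summed to between 59540 and 505200 CPM per mouse. Untreated mice 417, 461 and 463 and CCKRi mouse 69 had the highest sums of the adipocyte list, between 454.5 and 1552 CPM, against 65.0 to 351.6 CPM in the other 12 mice. Untreated mice 417, 461 and 463 also led the macrophage list, at 180.1 to 437.7 CPM, against 57.57 to 154.4 CPM in the other 13. In whole tissue, fewer cells of a type and less RNA per cell cannot be told apart. Lep transcript had 0.14 to 1.92 log2 CPM in lean mice, against 3.84 to 8.90 in untreated obese mice and 5.73 to 8.97 under CCKRi, which does not test the mutation, since the mutant allele is still transcribed.

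The promoters of the genes on which the results below turn are shown first. RefSeq (GRCm38.p6) gave a window of 250 bases before to 50 after the start for 40 of the 47 members, with 2 windows each for Psma6, Psmc2 and Psme2 and so 43 windows in all. Each was searched on both strands for TGACNNNGC (core of the antioxidant response element bound by NRF1 and NRF2), CCAAT (the NF-Y box) and GAAA, any 2 bases and GAAA (core of the interferon-stimulated response element). Capitals mark the matches. The immunoproteasome genes Psmb8 (chr17:34197945-34198244, plus strand), Psmb9 (chr17:34187281-34187580, minus strand) and Psmb10 (chr8:105938343-105938642, minus strand) are the inducible catalytic subunits, Psma3 (chr12:70974373-70974672, plus strand) showed the largest batch difference of the alpha ring, and Psmb5 (chr14:54617946-54618245, minus strand) that of the beta ring.
Psmb8: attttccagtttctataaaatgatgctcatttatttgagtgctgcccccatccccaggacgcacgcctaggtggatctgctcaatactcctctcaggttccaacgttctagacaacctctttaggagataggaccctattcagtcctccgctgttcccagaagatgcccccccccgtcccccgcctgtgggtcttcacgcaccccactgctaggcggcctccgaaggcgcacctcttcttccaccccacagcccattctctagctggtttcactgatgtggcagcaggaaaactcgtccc
Psmb9: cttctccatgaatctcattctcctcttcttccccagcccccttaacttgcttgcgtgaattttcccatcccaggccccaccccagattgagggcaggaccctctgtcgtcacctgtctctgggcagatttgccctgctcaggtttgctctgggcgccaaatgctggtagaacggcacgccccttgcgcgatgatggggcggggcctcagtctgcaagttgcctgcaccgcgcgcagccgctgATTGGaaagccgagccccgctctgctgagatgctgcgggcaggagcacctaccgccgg
Psmb10: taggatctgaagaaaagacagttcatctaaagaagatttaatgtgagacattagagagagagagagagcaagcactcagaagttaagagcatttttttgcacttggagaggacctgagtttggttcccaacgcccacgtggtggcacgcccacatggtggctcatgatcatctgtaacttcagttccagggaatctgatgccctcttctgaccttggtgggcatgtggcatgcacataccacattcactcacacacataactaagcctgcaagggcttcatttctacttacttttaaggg
Psma3: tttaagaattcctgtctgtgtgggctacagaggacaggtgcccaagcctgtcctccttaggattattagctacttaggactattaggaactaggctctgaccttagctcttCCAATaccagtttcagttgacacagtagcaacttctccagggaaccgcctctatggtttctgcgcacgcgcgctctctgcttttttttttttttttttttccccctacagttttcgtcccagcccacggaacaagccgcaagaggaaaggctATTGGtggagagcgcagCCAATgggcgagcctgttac
Psmb5: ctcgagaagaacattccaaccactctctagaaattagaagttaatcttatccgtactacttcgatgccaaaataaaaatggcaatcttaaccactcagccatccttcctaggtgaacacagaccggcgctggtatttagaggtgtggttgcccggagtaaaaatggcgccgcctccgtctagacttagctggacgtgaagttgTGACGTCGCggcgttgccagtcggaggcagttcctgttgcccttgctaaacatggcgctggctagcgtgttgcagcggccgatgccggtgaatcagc

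Psmb9 held a CCAAT box on the opposite strand, beginning 8 bases before the start, and Psmb8 and Psmb10 held none of the 3 motifs in this window. The windows of Psmb8 and Psmb9 lie wholly inside the gene bounds given in the next paragraph, so bases before those bounds were not searched. The interferon element stood in 5 of the 43 member windows (Psmb3, Psmd4, Psmd9, Psme1 and Psmg4) and in 3.44% of all 32851 promoters of this length. The antioxidant core stood in 6 of 43, among them Psmb5 at 47 bases before the start, Psmb6 and Psmc6, and in 12.4% of all promoters. CCAAT stood in 13 of 43 member windows and in 37.4% of all promoters. By class, it was found in 5 of 8 alpha ring windows (Psma1, Psma2, Psma3, 1 of the 2 of Psma6, and Psma7) and in 1 of the 4 beta ring promoters given (Psmb3). A match is a run of letters and not a measured binding site.

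Compared per length, as CPM per kilobase of all annotated exons of the gene (GENCODE M21, GRCm38), the member with the highest level was Psmb10, the inducible partner of Psmb7. Its level was 47.9 to 57.1 in the 3 WT mice of batch A and 39.9 to 55.5 in the 2 of batch B. Over all 16 mice its median was 43.1, and mouse 463 had the lowest value, 16.7. The other immunoproteasome genes stood near the bottom of the same order: the median over WT mice of batch A was 2.21 for Psmb8 and 0.683 for Psmb9. Psmb10 is encoded at chr8:105935735-105938444 on the minus strand, with 1872 bases between it and the pancreatic chymotrypsin-like gene Ctrl on the same strand, and no exon of it overlaps another gene. Psmb8 (chr17:34197721-34201454, plus strand) shares 498 exonic bases with Gm20496 on the other strand. Psmb9 (chr17:34181987-34187764, minus strand) shares 212 exonic bases with the peptide transporter gene Tap1 on the other strand, and the strand setting of the counting is not given in the sources used here.

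After Psmb10 came the 19S lid subunit Psmd6 and the alpha subunit Psma6, at medians of 24.9 and 22.4 CPM per kilobase in WT mice of batch A. Among the constitutive rings, the alpha genes ran from 4.99 (Psma1) to 22.4 (Psma6), the beta genes from 8.00 (Psmb3) to 17.6 (Psmb5) and the 19S ATPases from 5.39 (Psmc2) to 18.6 (Psmc1). The order of the rings was not the same in WT mice of batch B: the median alpha gene stood at 8.32 and the median beta gene at 13.3 in batch A, and at 16.6 and 10.9 in batch B, where Psmb5 stood at 8.53 and Psmb6, at 15.99, was the highest of the beta genes. The assembly chaperones, which build the complex but are not part of it, were lower, at 0.923 (Psmg3) to 4.17 (Psmg1) for the core and 0.648 (Psmd9) to 2.82 (Psmd10) for the cap. Psme1 and Psme2, the subunits of the 11S activator, stood at 5.18 and 5.52, and the nuclear activators Psme3 and Psme4 at 12.1 and 10.1. The lengths count exons of every annotated transcript, so that genes with long alternative exons read low.

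**Figure D1:**
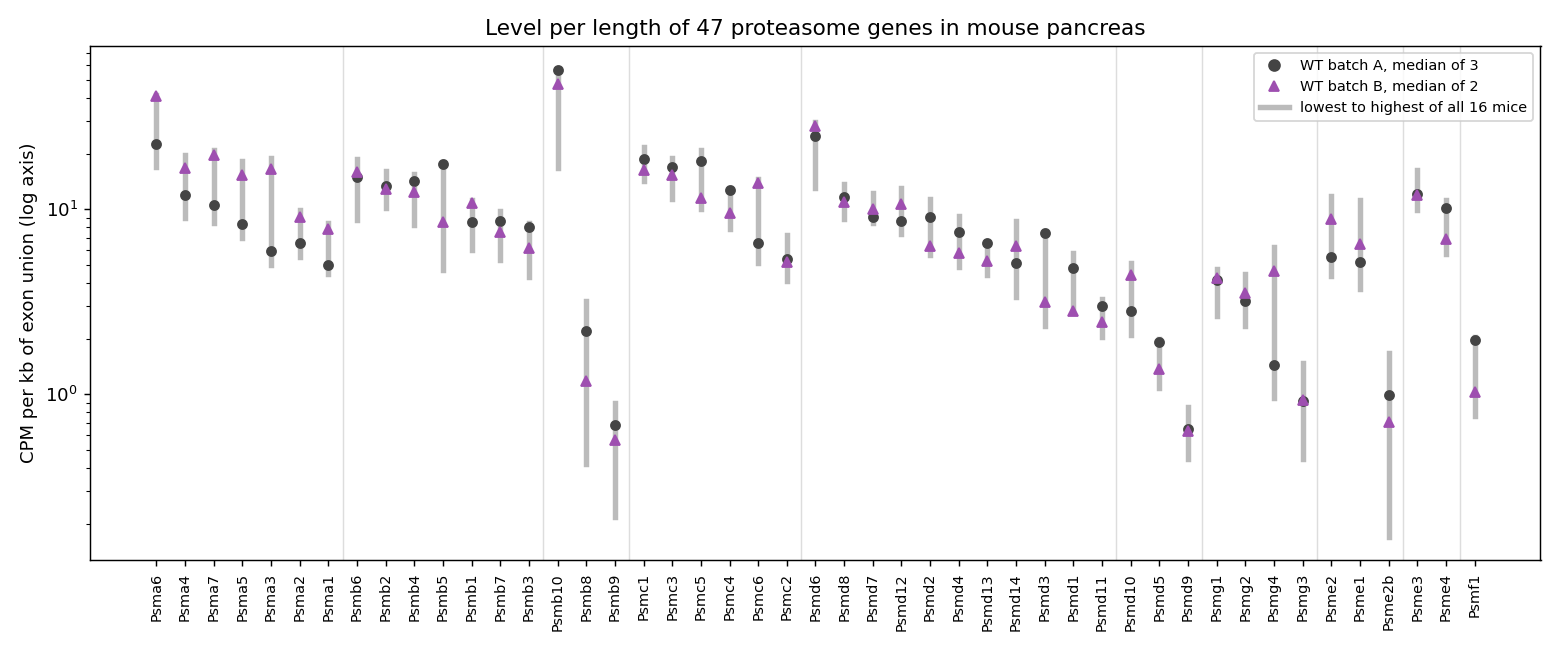
Level of each of the 47 members in CPM per kilobase of annotated exon on a log axis, grouped by class from left to right (alpha ring, beta ring, immunoproteasome, 19S ATPases, 19S non-ATPases, 19S chaperones, 20S chaperones, 11S, nuclear activators, inhibitor). Circles and triangles are medians of the WT mice of batches A and B and bars span all 16 mice: Psmb10 is highest, while Psmb8 and Psmb9 lie near the bottom.

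In obese against lean mice, no member passed the test. Of the 47 members, 0 were called at an adjusted p under 0.05 (edgeR quasi-likelihood test with a batch term, Benjamini-Hochberg over 13660 genes), where 9.07% of all genes were called. DESeq2 called 1 member, Psmc6, where it called 12.4% of all genes. The median log2 fold change of the members was -0.08, with 35 of 47 below 0, and that of all genes tested was -0.02, with 52.3% below 0. On library totals, with no TMM factor, these medians were 0.08 and 0.15, so levels are given relative to the bulk of genes. At an unadjusted p under 0.05, 1 member had a fold change above 0 (Psmd2) and 6 had one below 0 (Psma3, Psmb1, Psmb6, Psmb10, Psmc6 and Psmd6), where 12.2% of all genes were above 0 and 11.6% below 0 at that p. The size of a difference was bounded: the 95% interval lay within 1 log2 unit on either side of 0 for 31 of 31 constitutive subunits of core and cap (44 of 47 members, the other 3 being the immunoproteasome genes, and 72.2% of all genes) and within 0.5 for 22 of these 31 (30 of 47 members, 32% of all genes).

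By class, the log2 fold changes of the beta ring ran from -0.34 (Psmb6) to -0.01 (Psmb2), with a median of -0.16, and those of the alpha ring from -0.36 (Psma3) to 0.03 (Psma1), with a median of -0.20. The 19S ATPases ran from -0.35 (Psmc6) to 0.04 (Psmc1) and the 19S non-ATPases from -0.40 (Psmd6) to 0.31 (Psmd2, the scaffold of the base). The 3 members with the highest fold changes were Psmd2, the scaffold subunit Psmd1 (0.17, adjusted p = 0.59) and the ubiquitin receptor Psmd4 (0.12, adjusted p = 0.65). The 11S genes were close to 0, at 0.04 for Psme1 (standard error 0.17, adjusted p = 0.92) and 0.01 for Psme2 (standard error 0.14, adjusted p = 0.97). The nuclear activators Psme3 and Psme4 stood at -0.02 and -0.04, and the inhibitor Psmf1 at 0.04.

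Only for Psmb6, Psmc6 and Psmd6, named after their values were seen, did all Lep(ob/ob) mice lie below all WT mice in both batches. That is 3 of 47 members, and 3.70% of all genes were apart in this way. 0 members were above WT in both batches, against 4.97% of all genes. Psmb6, the catalytic subunit with caspase-like activity, was in batch A at 5.14, 4.82 and 4.81 log2 CPM in WT against 4.49, 4.60, 4.52 and 4.71 in Lep(ob/ob), and at 5.00 and 4.81 against 4.43, 4.51 and 4.75 in batch B. The gap between lean and obese mice was narrower than the spread among the lean mice of batch A. Its log2 fold change was -0.34 (standard error 0.13, adjusted p = 0.13), and it was called, at -0.35 (adjusted p = 0.034), when the fit held only these 2 groups. Psmc6, a 19S ATPase, was in batch A at 4.63, 4.41 and 4.54 in WT against 4.23, 4.36, 4.17 and 4.34 in Lep(ob/ob), and at 5.67 and 5.53 against 4.87, 4.93 and 5.44 in batch B. WT mice of batch B were all above those of batch A, and its log2 fold change was -0.35 (standard error 0.12, adjusted p = 0.077; DESeq2 adjusted p = 0.049; 0.048 in edgeR without mouse 464). Psmd6 was at 6.17, 6.01 and 6.12 against 5.85, 5.90, 5.48 and 5.96 in batch A, and at 6.37 and 6.24 against 5.79, 5.20 and 6.11 in batch B. The lowest obese mice of Psmd6 were 417 and 463, and its log2 fold change was -0.40 (standard error 0.17, adjusted p = 0.15).

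**Figure D2:**
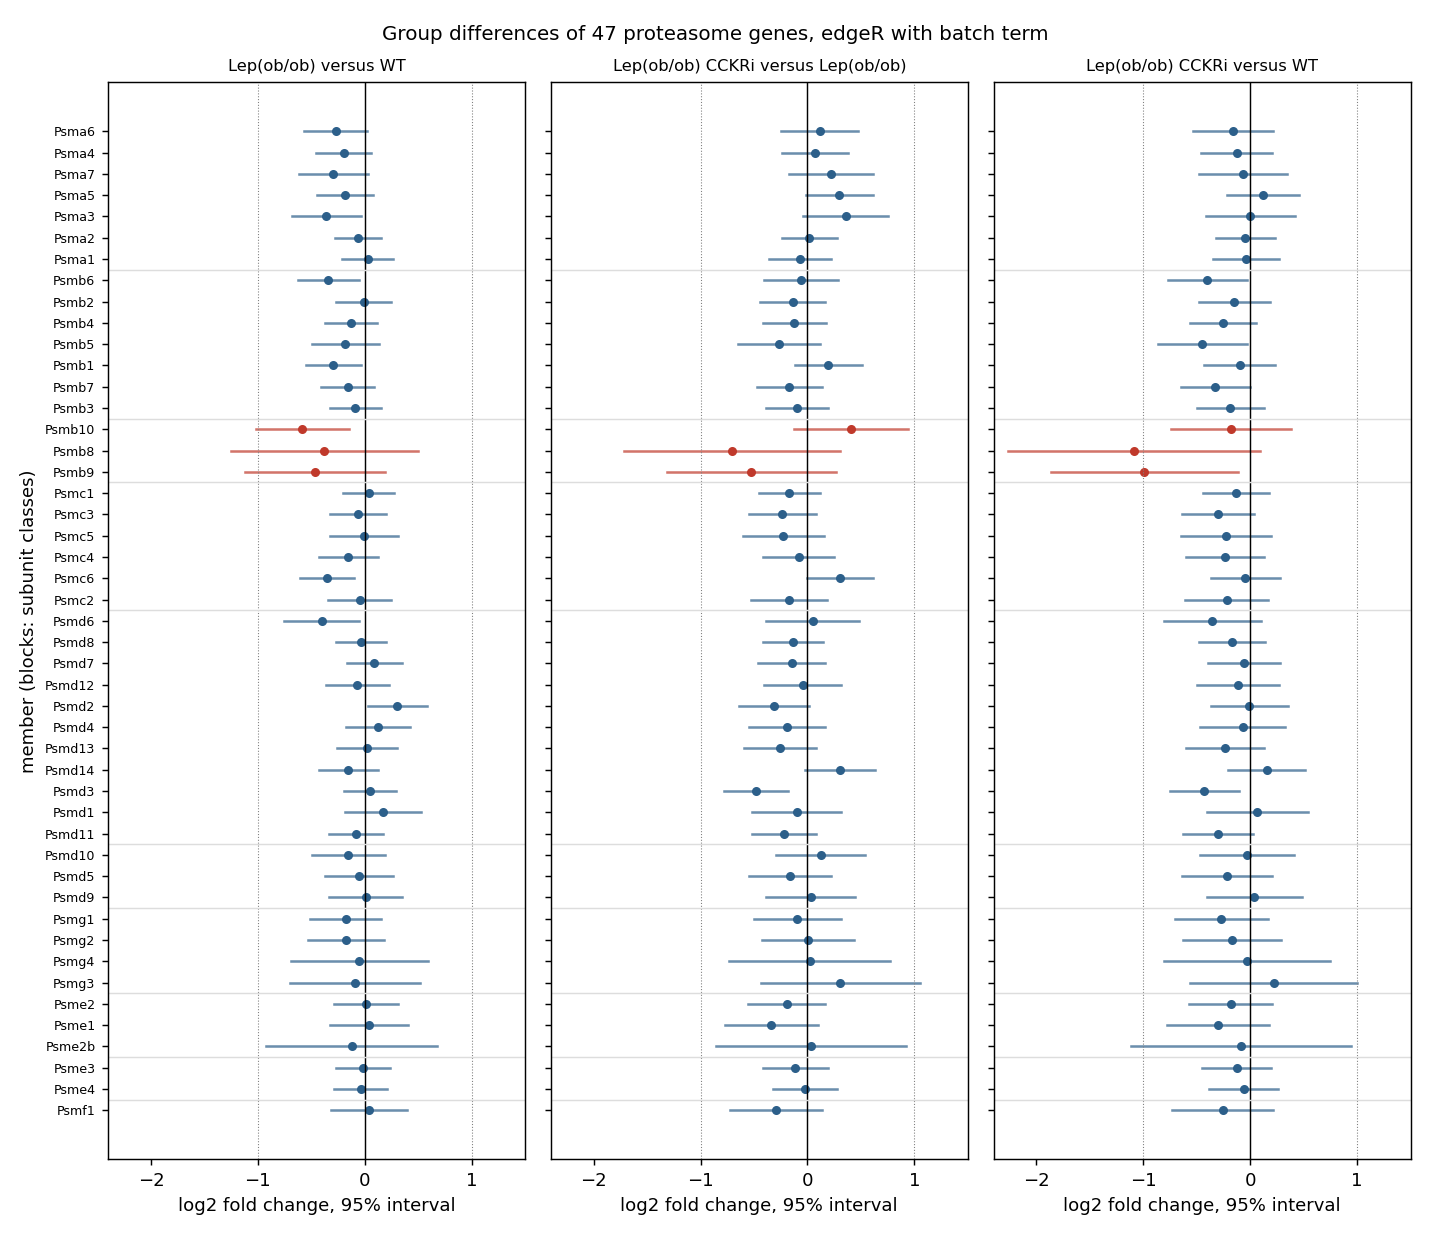
Log2 fold change (points) with 95% interval (lines) of each of the 47 members in 3 comparisons, from the edgeR model with a batch term; red marks the immunoproteasome genes and dotted lines a log2 fold change of 1. Intervals of the constitutive subunits stay within the dotted lines in all 3 comparisons, and those of Psmb8 and Psmb9 are the widest of the red ones.

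Psmb8 held the largest spread of the 47 members between mice of 1 group and batch. The SD of log2 CPM about the mean of each group and batch was 0.65 for Psmb8, 0.49 for Psmb9 and 0.40 for Psmb10, against a median of 0.23 for all members, 0.31 for all genes, 0.20 for the alpha ring and 0.19 for the beta ring. Psmb8, whose chymotrypsin-like activity replaces that of Psmb5, was at 3.04, 2.93 and 2.03 log2 CPM in WT mice 5489, 5492 and 5494 of batch A and at 2.17 and 1.86 in WT mice 58 and 59 of batch B. In Lep(ob/ob) mice it was at 0.62, 1.58, 2.53 and 1.01 in mice 441, 472, 417 and 447 of batch A and at 2.58, 3.45 and 1.91 in mice 461, 463 and 464 of batch B. CCKRi mice 69, 72, 74 and 76 had 2.22, 1.49, 1.08 and 1.96. Each group thus spanned over 1 log2 unit, and mice 463, 461, 417 and 69 were the highest within their group.

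Over all mice, the Psmb8 difference between Lep(ob/ob) and WT was -0.38 (standard error 0.42, adjusted p = 0.63). Within batch A it was -1.01 (adjusted p = 0.24) and within batch B 0.76 (adjusted p = 0.40). The interaction of genotype and batch for Psmb8 was 1.80 (standard error 0.74, unadjusted p = 0.031, adjusted p = 0.40). No gene of 13189 passed this interaction test in edgeR, so 0% were called. Under an unadjusted p of 0.05 were 3 members, Psmd1 (interaction 0.80, edgeR adjusted p = 0.37), Psmb8 and Psme2b (1.63, adjusted p = 0.40), and 11.9% of all genes. DESeq2 called 0 of 47 members and 54 genes (0.426%). Without mice 417, 461, 463 and 69, Psmb8 fell by 1.14 on the log2 scale in Lep(ob/ob) against WT (edgeR adjusted p = 0.018), the 1 member called in that fit, where 12.3% of all genes were called. Over the settings tried, the adjusted p for Psmb8 ran from 0.018, in this same fit, to 0.94. It ran from 0.36 to 0.87 when single mice were left out. The 4 mice were set apart by their adipocyte and macrophage genes, with which Psmb8 itself moved, so this fit is not independent of Psmb8.

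Psmb9, the partner of Psmb6, was at 1.39, 1.76, 1.18, 1.26 and 0.95 log2 CPM in the 5 WT mice in the order above, and from -0.15 (mouse 447) through a median of 0.85 to 1.69 (mouse 463) in Lep(ob/ob). CCKRi mice had 1.24, -0.06, 0.41 and 0.08, with mouse 69 the highest. Its counts were 14 to 80 per mouse, the lowest of the catalytic genes. The difference was -0.47 for Lep(ob/ob) against WT (standard error 0.31, adjusted p = 0.39) and -0.99 for CCKRi against WT (standard error 0.41, unadjusted p = 0.029, adjusted p = 0.22). Psmb10 was at 6.59, 6.36, 6.60, 6.09 and 6.56 in WT, from 4.84 (mouse 463) through 5.82 to 6.26 (mouse 447) in Lep(ob/ob), and at 5.53, 6.37, 6.11 and 6.18 in CCKRi mice. Here mice 463, 461 and 69 were the 3 lowest of the 16. Its log2 fold change of -0.58 between Lep(ob/ob) and WT (standard error 0.20, adjusted p = 0.088) was the lowest of the 47 and did not pass the test. Of 12 edgeR fits that each left out 1 mouse, 11 did not call it, with adjusted p up to 0.25. The fit without mouse 464 did (-0.70, adjusted p = 0.028), and it kept 461 and 463 as the untreated mice of batch B. The Psmb10 fold change was -0.42 within batch A, -0.75 within batch B and -0.30 without the 4 mice (adjusted p = 0.076, 0.35 and 0.16).

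The marker lists moved with these genes. Mean log2 CPM of the 7 macrophage genes was 5.93 in mouse 463, 4.83 in 461, 4.57 in 417 and 4.35 in 69, the 4 highest of the 16, and 2.82 to 3.81 in the others. The 3 mice lowest in this list, 447, 74 and 441, were also the 3 lowest for Psmb8. The acinar list was lowest in mice 69 (10.2) and 463 (10.8), which were the lowest for Psmd6 (5.28 and 5.20) and among the 3 lowest for Psmb10. WT mice 5489 and 5492 did not follow this order: their Psmb8 was the next highest of the 16 after mouse 463 at macrophage means of 3.51 and 3.81. In the 7 of 9 lymphocyte genes that passed the filter, mouse 5492 was the second highest at a sum of 52.9 CPM, after mouse 463 at 82.5 CPM, and mouse 5489 stood at 31.8 CPM. The part of cell makeup in these differences was not tested. Of 10 genes of MHC class I presentation and its interferon regulators, 0 were called in any group comparison. Of all genes, 9.07%, 0.0586% and 5.57% were called in the 3 comparisons. In Lep(ob/ob) CCKRi against Lep(ob/ob), 9 of 10 had fold changes below 0 with 4 at an unadjusted p under 0.05, beside 7 of 7 macrophage genes below 0 and under that p. Of all genes, 51.2% had fold changes below 0 and 6.74% were below 0 at that p. Summed over the 10 presentation genes, the untreated mice of batch B had 750.3 (463), 383.7 (461) and 227.1 CPM (464), and CCKRi mice 184.3 to 416.8 CPM.

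**Figure D3:**
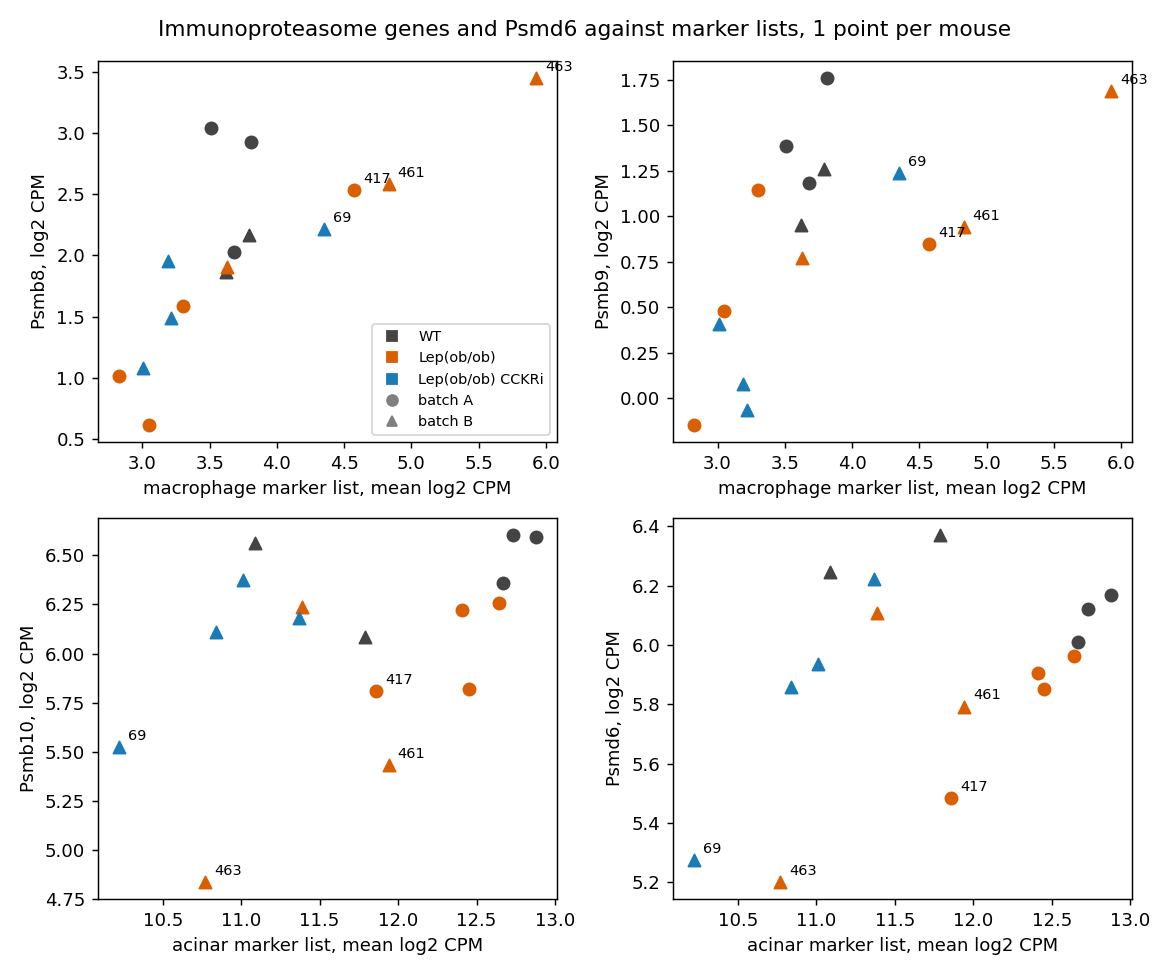
Log2 CPM of Psmb8 and Psmb9 against the mean log2 CPM of 7 macrophage genes (top), and of Psmb10 and Psmd6 against that of 8 acinar genes (bottom), 1 point per mouse, coloured by group and shaped by batch. Mouse 463 is the highest in macrophage genes and Psmb8 and the lowest in Psmb10 and Psmd6.

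The ratio of an immunoproteasome subunit to the constitutive subunit it replaces does not depend on library scaling. Psmb8 counts were 0.120 (mouse 441) to 1.49 (mouse 463) of Psmb5 counts over all mice. WT mice had 0.512, 0.491, 0.246, 0.558 and 0.475, and CCKRi mice 1.07, 0.447, 0.363 and 0.438. Of the untreated obese mice of batch A, 441, 472 and 447 had 0.120 to 0.195, below every WT mouse, and mouse 417 had 0.527, within the WT range. In batch B they went the other way or did not differ: 461 and 463 had 0.722 and 1.49, above every WT mouse, and 464 had 0.475, within the WT range. Between batches a ratio also carries the batch difference of its genes, which was -0.86 for Psmb5 and 0.46 for Psmb8 in batch B over A. Psmb9 counts were 0.0304 to 0.137 of Psmb6 counts, and Psmb10 counts 1.20 to 4.38 times those of Psmb7. The difference of mean log2 ratios between Lep(ob/ob) and WT was taken within each batch and averaged over the batches with weights from the numbers of mice. With labels permuted within batch, none of the pairs passed a two-sided exact permutation test adjusted over the 3 pairs and 2 comparisons. The difference was -0.30 for Psmb8 to Psmb5 (p = 0.57, adjusted p = 0.59), -0.19 for Psmb9 to Psmb6 (p = 0.59, adjusted p = 0.59) and -0.47 for Psmb10 to Psmb7 (p = 0.089, adjusted p = 0.43), over 350 permutations. For CCKRi against untreated mice of batch B it was -0.60, -0.67 and 0.76 (exact permutation p = 0.34, 0.31 and 0.14, adjusted p = 0.51, 0.51 and 0.43), over 35 permutations, with which 1 pair on its own could not go below an adjusted p of 0.17. Without mice 417, 461, 463 and 69, the Psmb8 to Psmb5 difference between Lep(ob/ob) and WT was -1.01, with no test given, since the 60 permutations left allow 1 pair on its own no adjusted p below 0.10.

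**Figure D4:**
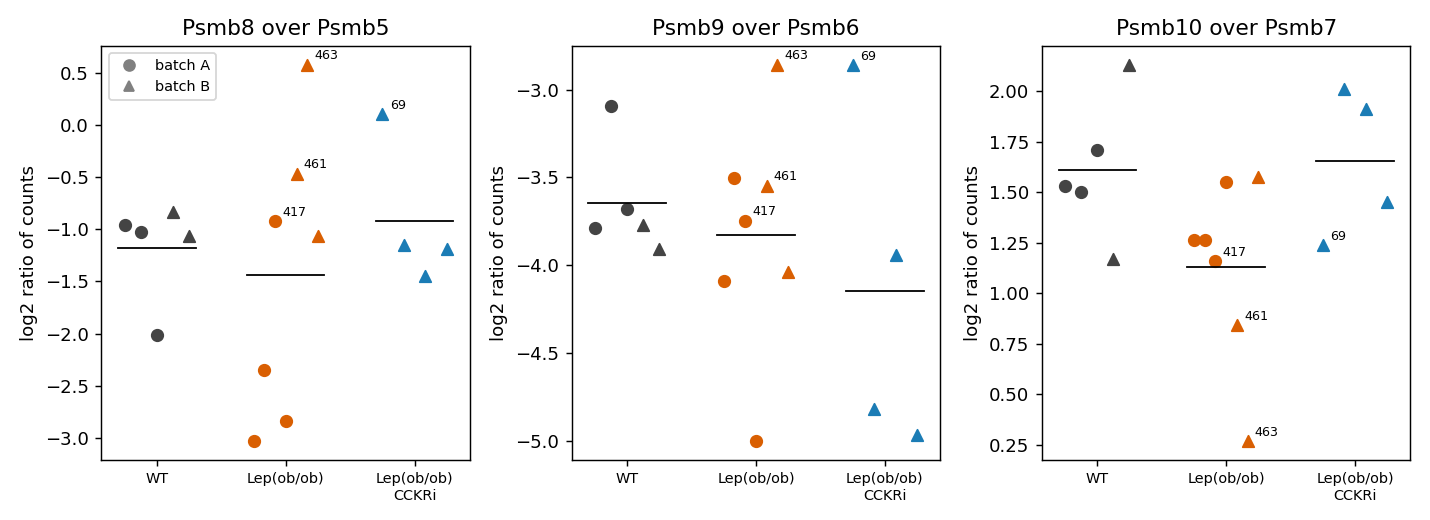
Log2 ratio of raw counts (plus 0.5) of each immunoproteasome gene to the gene it replaces, 1 point per mouse by group, with circles for batch A, triangles for batch B and the group mean as a line. Mouse 463 has the highest Psmb8 and the lowest Psmb10 ratio of the 16 mice.

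With the receptor inhibitors, 0 of 47 members were called against untreated Lep(ob/ob) mice, where 0.0586% of all genes (8 of 13660) were called, and 1 member was under an unadjusted p of 0.05, as were 14.3% of all genes. DESeq2 called 0 members too, where it called 0.945% of genes, with 2 members and 15.5% of all genes under that p. The median member stood at -0.09 and all genes at -0.01. The 1 member under that p was Psmd3, a scaffold of the 19S lid, and the 1 member, named after its values were seen, for which all CCKRi mice lay below all untreated mice of batch B; 3.57% of all genes did so, and 0 members and 4.92% of all genes lay above. Psmd3 was at 4.47, 4.18 and 4.07 log2 CPM in Lep(ob/ob) mice 461, 463 and 464 and at 3.68, 3.59, 3.56 and 3.91 in CCKRi mice. The WT mice of the same batch were at 4.08 and 3.86, overlapping both groups. Its log2 fold change was -0.48 (standard error 0.14, adjusted p = 0.24). With the proglumide mice alone or the lorglumide mice alone, at their different doses, edgeR called 0 of 14468 and 0 of 14222 genes of all, so that 0 of 47 members called says nothing about the members. Under an unadjusted p of 0.05 were 4 and 1 members, and 9.55% and 16.3% of all genes.

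The lowest fold changes in this comparison were Psmb8 at -0.71 (standard error 0.48, adjusted p = 0.49), Psmb9 at -0.52 and Psmd3, and the highest fold changes Psmb10 at 0.40 (standard error 0.25, adjusted p = 0.46), Psma3 at 0.36 and the chaperone Psmg3 at 0.31. Without the 4 mice named above, Psmb8 stood at 0.29 (adjusted p = 0.96), with mouse 464 the only untreated mouse left in batch B. In the catalytic subunits Psmb5, Psmb6 and Psmb7, differences were -0.27, -0.06 and -0.17, and in Psme1 and Psme2 -0.34 and -0.19, with adjusted p from 0.45 to 0.88. Against WT, 0 of 47 members were called, where 5.57% of all genes were, with 5 under an unadjusted p of 0.05 in edgeR, as were 16.7% of all genes, and 6 in DESeq2, as were 17.6% of all genes, which called 0 members and 7.79% of all genes. These 5 were Psmb5 (-0.45, adjusted p = 0.25), Psmb6 (-0.40, adjusted p = 0.25), Psmb7 (-0.33, adjusted p = 0.29), Psmb9 and Psmd3 (-0.43, adjusted p = 0.13), named after their values were seen, and all had fold changes below 0, as had 7.28% of all genes at that p. Psmb5 was at 2.996 and 2.914 log2 CPM in WT mice of batch B and at 2.11, 2.62, 2.50 and 3.13 in CCKRi mice, of which mouse 76 was the highest and above both WT mice. Without mouse 76, Psmb5 and Psmb6 fell by 0.66 and 0.58 on the log2 scale (adjusted p = 0.037 and 0.047). They were the 2 of 47 members called in that fit, which called 5.05% of all genes. Of 9 edgeR fits that each left out 1 mouse, the other 8 called neither gene, with adjusted p up to 0.51 for Psmb5 and 0.57 for Psmb6. Psmb8 stood at -1.08 (standard error 0.56, adjusted p = 0.36) and Psmb10 at -0.18. The 3 highest fold changes were Psmg3 at 0.22, the deubiquitinase Psmd14 at 0.16 and Psma5 at 0.12. In both comparisons 31 of 31 constitutive subunits had intervals within 1 log2 unit of 0, as had 67.1% of all genes against untreated Lep(ob/ob) and 64.5% against WT. Within 0.5 were 15 and 16 of the 31, and 21.2% and 17.6% of all genes.

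More members differed between the batches than between the groups. In the same model, 19 of 47 were called, against 35.7% of all genes. Of these, 13 were higher in batch B (18.1% of all genes) and 6 lower (17.7%). The 7 of 7 alpha ring genes were all higher, by 0.45 (Psma1, standard error 0.11) to 1.14 (Psma3, standard error 0.15), with adjusted p of 0.0066 or less. In the beta ring 0 of 7 were higher and 3 were lower, whereas on library totals, where the median of all genes stood at 0.94, 6 of 7 were higher, 0 were lower and the alpha ring was still 7 of 7 higher, with 72.9% of all genes higher and 0.937% lower. The 3 were Psmb5 at -0.86 (standard error 0.15, adjusted p = 0.00066), Psmb3 at -0.41 and Psmb4 at -0.33. Psma3 was at 4.29 to 4.71 log2 CPM (median 4.54) in the 7 mice of batch A and at 4.92 to 6.21 (median 5.82) in the 9 of batch B. Psmb5 was at 3.44 to 4.02 (median 3.90) in batch A and at 2.11 to 3.13 (median 2.91) in batch B. For both genes the batches did not overlap in these 16 mice. Of the 50-base stretches of Psmb5 transcripts 54.1% also occur in other genes' transcripts, as do 15.4% of those of Psma3 and 49.1% of those of Psma5, so their reads may be split.

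The ring difference within a library is free of scaling. Mean log2 CPM of the alpha ring minus that of the beta ring was -0.24 to -0.02 in the 7 mice of batch A and 0.51 to 1.12 in the 9 of batch B, with no overlap. WT mice had -0.08, -0.24 and -0.12 in batch A and 0.79 and 0.99 in batch B. Lep(ob/ob) mice had -0.04, -0.11, -0.02 and -0.05 in batch A and 0.51, 0.74 and 0.85 in batch B, and CCKRi mice 1.08, 1.12, 1.11 and 0.81. The ranges of lean and obese mice overlapped in each batch.

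Other members called higher in batch B were the ATPase Psmc6 (0.93), the 19S deubiquitinase Psmd14 (0.61), the chaperones Psmg4 (1.15) and Psmd10 (0.57), and Psme1 and Psme2 (0.59 and 0.78). Called lower were Psmd3 (-0.97, adjusted p = 0.00010), the inhibitor Psmf1 (-0.70) and the activator Psme4 (-0.43). These calls of lower levels hold relative to the bulk of genes: on library totals Psmd3 stood at -0.11 (adjusted p = 0.52) and Psmf1 at 0.14 (adjusted p = 0.45), and Psme4 was called higher (0.44, adjusted p = 0.015). Of the 19S non-ATPases, Psmd14 was called higher, Psmd3 lower and the other 9 not, and on library totals 10 of 11 were called higher and 0 lower. Transcript GC content moved with the batch difference: its median was 45% in the 13 higher members, 53% in the 6 lower and 51.1% in the 28 not called, and 45% in the alpha ring against 52.2% in the beta ring. Across genes, which are not independent replicates, Pearson's r of GC with the batch difference was -0.43 (Spearman -0.36) over 47 members and -0.36 (Spearman -0.37) over 13173 genes. Marker lists moved too. In batch B, 6 of 8 acinar and 3 of 10 islet genes were called lower, and 2 of 7 macrophage, 2 of 6 fibroblast and 1 of 7 adipocyte genes higher, with 0 of 6 duct and 0 of 7 lymphocyte genes called. Of all genes, 17.7% were called lower and 18.1% higher. Macrophage and adipocyte genes were above 0 in 7 of 7 cases each and islet genes below 0 in 10 of 10. On library totals, 3 of 8 acinar and 0 of 10 islet genes were called lower. Called higher there were 7 of 7 macrophage, 5 of 7 adipocyte, 4 of 6 duct, 3 of 6 fibroblast, 1 of 7 lymphocyte and 1 of 8 acinar genes. Of all genes, 72.9% were higher and 0.937% lower on library totals, and islet genes lay on both sides of 0 (Iapp 0.83, Chga -0.72). The part of the marker lists in the batch difference was not tested.

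**Figure D5:**
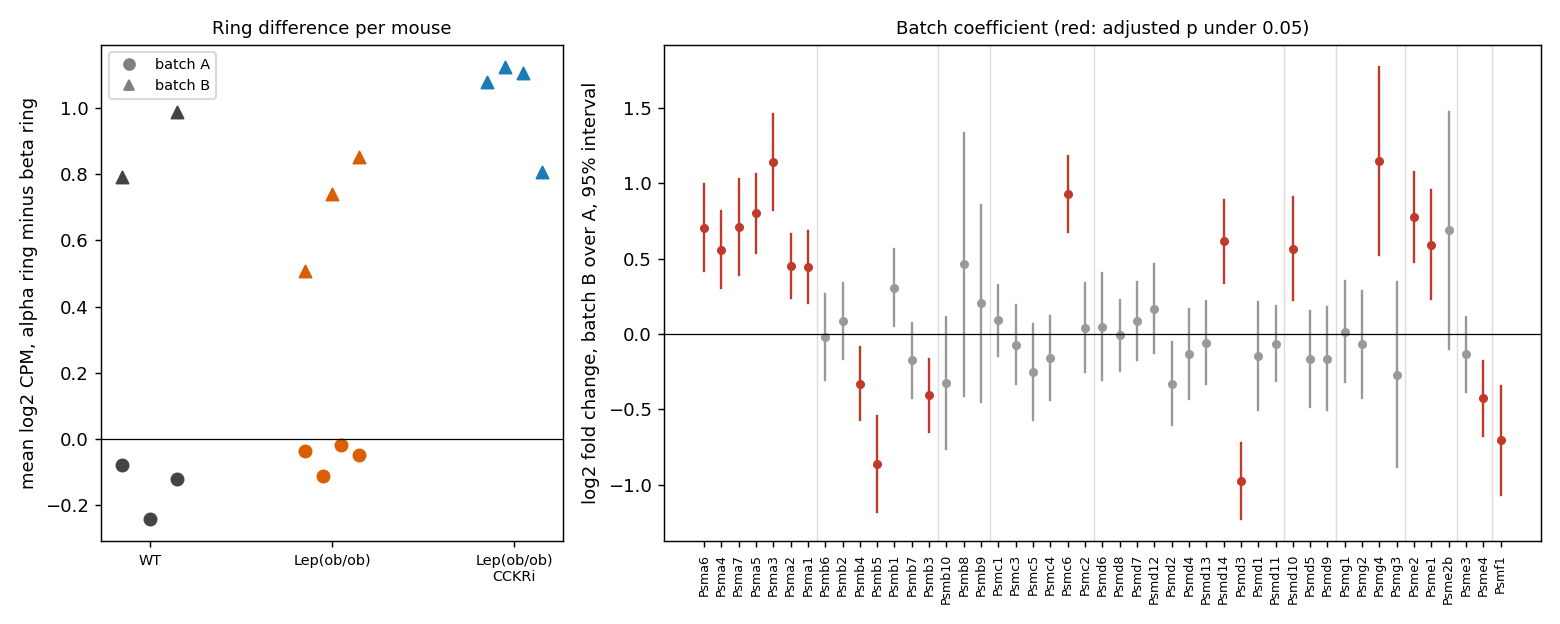
Left: mean log2 CPM of 7 alpha ring genes minus that of 7 beta ring genes, 1 point per mouse; batch A lies at or under -0.02 and batch B at or above 0.51. Right: log2 fold change of batch B over batch A with 95% interval for the 47 members in class order, red where the adjusted p is under 0.05; the first 7, the alpha ring, are all red and above 0. On library totals 6 of 7 beta ring genes are higher, and the left panel does not change.

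Genes around the proteasome were counted from lists chosen with the members. Of 5 regulators of proteasome transcription (Nfe2l1, which drives all subunits when the proteasome is blocked, its activators Ddi2 and Ngly1, and Nfe2l2 with its repressor Keap1), 0 were called in any group comparison, with fold changes from -0.32 to 0.23 over the 3 comparisons. In batch B, Nfe2l2 was higher (0.44, adjusted p = 0.022) and Keap1 lower (-0.44, adjusted p = 0.019), though higher on library totals (0.44, adjusted p = 0.030). On library totals 4 of the 5 regulators were called higher and 0 lower. Of 9 proteasome partners that the symbol rule does not reach, 0 were called between groups, and in batch B 2 were higher and 1, the ubiquitin receptor Adrm1, was lower (-0.84, adjusted p = 0.00021), though not on library totals (0.04, adjusted p = 0.81). On library totals 8 of the 9 partners were called higher and 0 lower. Of 15 genes for ubiquitin and its delivery, 0 were called between groups, where 9.07%, 0.0586% and 5.57% of all genes were in the 3 comparisons. In batch B 2 were higher and 10 lower, against 18.1% and 17.7% of all genes, and on library totals 7 were higher and 1 lower, against 72.9% and 0.937%. The polyubiquitin gene Ubb was at -1.54 (adjusted p = 4.8e-05) and the ubiquitin and ribosomal protein fusion Rps27a at 1.52 (adjusted p = 0.0013), and on library totals they stood at -0.65 and 2.40 (adjusted p = 0.0070 and 3.4e-05).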

How the data were processed

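Per the labels, polyA RNA of pancreas was sequenced from strand-specific libraries, 1 per mouse. Per the submitters' processing notes, the authors used Trim Galore 0.6.7 and cutadapt 3.5 for trimming and STAR 2.7.9 for alignment (build mm10); the counter, its strand setting and the annotation are not given in the sources used here. The deposited raw counts per gene symbol were analysed. The deposited normalized table, a signal that the authors made as counts divided by 1 size factor per library, served only to check the columns, and 0 columns of per-sample values had no sample. Counts were filtered, TMM-scaled and tested with edgeR 4.0.16 (quasi-likelihood, group and batch terms, R 4.3.3) over all genes, with DESeq2 1.42.0 as an alternative, after tests on simulated data. Full statistics went to the catalytic pairs, Psme1, Psme2, called members and the 3 highest and 3 lowest fold changes of each comparison. Between batches, some called members, among them Psmb3, Psmb4 and Psme4, were left out. Ratios took a pseudocount of 0.5. Gene models were GENCODE M21 and promoters RefSeq. Members and lists were chosen with earlier results of these data known. Each mouse is 1 library, so p-values measure the spread between single mice. Alternatives changed the normalization, filter, batch term, samples and pseudocount. Psmb9 had 14 to 80 counts per mouse, which limits its precision.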

Additional observations from a re-analysis of the deposited data

Results flagged for a closer look

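Among sets of 4 to 7 mice (log2 CPM of a member, a pair ratio or the ring difference in 1 group), 10 held a mouse whose gap to the nearest other mouse took up more of the group's range than Dixon's 95% limit, and chance flags about 1 in 20 sets, or 7.65 here. WT and untreated Lep(ob/ob) sets mix both batches.

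In WT, mouse 59 was lowest for the 19S lid subunit Psmd13 at 3.897 log2 CPM (next 4.371) and for the chaperone Psmd5 at 2.982 (next 3.607). Mouse 5494 had the lowest log2 ratio of Psmb8 to Psmb5, -2.018 (next -1.066), and mouse 5492 the highest of Psmb9 to Psmb6, -3.094 (next -3.677). In Lep(ob/ob), mouse 464 was highest for Psma7 at 5.907 (next 5.144) and lowest for Psmd2 at 4.788 (next 5.266). Mouse 472 was highest for Psmb7 at 4.962 (next 4.715) and mouse 417 lowest for the lid subunit Psmd7 at 4.288 (next 4.55). In CCKRi mice, mouse 76 was highest for Psmd13 at 4.411 (next 3.972) and had the lowest alpha minus beta ring mean, 0.807 (next 1.078).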

How the results depend on the processing

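Of 1645 alternative values, 1550 were the same, 53 reversed, 23 passed the threshold anew with the same sign and 18 counts or medians moved. A further 1 (Psmd3 between batches, on library totals) no longer passed the threshold with the same sign. For fold changes and ratios, same meant an unchanged sign and side of the threshold. For counts and medians it meant a move under a set limit, which for a median was 0.17 whatever its sign. The member median of Lep(ob/ob) against WT, -0.08 and 0.08 on library totals, thus counted as same. Of the 53, 2 also lost their call (Psmb5 and Psmf1) and 4 gained one (Psmb6, Psmb7, Psmb10 and Psmd2), all between batches on library totals. The other 47 were called in neither fit. For single members, the 53 cover only those followed through the alternatives. Among members not followed, Psmb3, Psmb4 and Psme4 went from called lower to called higher between batches on library totals. The cause of these changes was not tested, except that fewer mice or genes enter where named. Leaving out the 4 marker-rich mice and DESeq2 for the batch comparison, DESeq2 for the interaction, and leaving out single mice for the batch comparison were chosen after seeing the data. No paired analysis was possible because each mouse has its own number and belongs to 1 group.

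Members called lower came to 1 in Lep(ob/ob) against WT with DESeq2, with the 2 groups alone (Psmb6, where 3.37% of all genes were called lower) and without mice 417, 461, 463 and 69 (Psmb8). Without a batch term they came to 1 for CCKRi against Lep(ob/ob) (Psmd3) and 2 for CCKRi against WT (Psmb5 and Psmd3), where 1.76% and 5.37% of all genes were called lower. Leaving out single mice gave 0 to 2 for Lep(ob/ob) against WT (2 without 464, with 3.72% of all genes lower) and 0 to 2 for CCKRi against WT (2 without 76). It gave 0 to 1 for beta ring genes higher in batch B (Psmb1, without 461 or 463), and -0.34 to 0.014 for the log2 Psmb9 to Psmb6 difference between Lep(ob/ob) and WT. Between batches, the 4-mouse exclusion gave 10 members lower (21.9% of all genes) and 1 beta ring gene higher, DESeq2 gave 1 beta ring gene higher, and library totals gave 44 members higher and 0 lower, where 72.9% and 0.937% of all genes were, with 6 beta ring genes higher and 0 lower.

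On library totals, the median of all genes stood at 0.15, 0.31, 0.47 and 0.94 in the 4 comparisons in the order of the report. The median of members became 0.08 for Lep(ob/ob) against WT, 0.20 for CCKRi against Lep(ob/ob) and 0.30 for CCKRi against WT. For Lep(ob/ob) against WT, signs thus also turned in members not followed. Of the members followed, signs that turned on library totals were Psmb7 (0.02) for Lep(ob/ob) against WT, and Psmb5 (0.0082), Psmb6 (0.20), Psmb7 (0.14) and Psme2 (0.077) for CCKRi against Lep(ob/ob). For CCKRi against WT they were Psmb6 (0.038), Psmb7 (0.17), Psmb10 (0.25), Psme1 (0.21), Psme2 (0.30) and Psmd3 (0.081). Between batches they were Psmb5 (0.017), Psmb6 (0.86), Psmb7 (0.69), Psmb10 (0.55), Psmf1 (0.14) and Psmd2 (0.57). Members not followed turned as well, among them Psmb3 (0.48), Psmb4 (0.56) and Psme4 (0.44).

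The signs in the rest of this section also cover only the members followed. Without a batch term, Psme2 turned for CCKRi against Lep(ob/ob) (0.20), and Psme1 (0.056) and Psme2 (0.24) for CCKRi against WT. For Lep(ob/ob) against WT, of the members followed, batch A alone turned Psme1 (-0.10), Psmd1 (-0.11) and Psmd4 (-0.039), and batch B alone Psmb8 (0.76) and Psmb9 (0.071). Lorglumide mice alone turned Psmb6 (0.089) for CCKRi against Lep(ob/ob). Without the 4 mice, Psme1 (-0.26), Psme2 (-0.12) and Psmd1 (-0.053) turned for Lep(ob/ob) against WT, Psmb8 (0.29) and Psme1 (0.059) for CCKRi against Lep(ob/ob), and Psmb8 (-0.14), Psmb6 (0.054) and Psmb9 (-0.15) between batches.

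Leaving out single mice turned the sign within these ranges: Psme1 -0.081 to 0.14, Psme2 -0.067 to 0.076 and Psmd4 -0.0048 to 0.21 for Lep(ob/ob) against WT, Psmb6 -0.24 to 0.079 for CCKRi against Lep(ob/ob), Psmg3 -0.034 to 0.48 for CCKRi against WT, and Psmb6 -0.078 to 0.025 and Psmb9 -0.065 to 0.36 between batches.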
